A study of Mus musculus with 1012 samples.

Results

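Adipogenic induction of adipose stem and progenitor cells (ASPCs) was followed with Live-seq, which draws part of the cytoplasm from a living cell with a hollow microscope tip and sequences its RNA while the cell survives. By their labels, 80 of the 1012 libraries of the series are Live-seq biopsies of batch 9_4. These comprise 43 biopsies of untreated ASPCs (ASPC_Pre) and 37 of ASPCs after 2 days in an adipogenic cocktail (ASPC_Post). The remaining libraries come from other cells, other batches or whole lysed cells. According to the methods of the study, the ASPCs are primary cells from the subcutaneous fat of female C57BL/6J mice, the cocktail held dexamethasone, 3-isobutyl-1-methylxanthine, insulin and rosiglitazone, and some ASPCs had received a lentivirus with a green fluorescent protein (EGFP) barcode so that they could be found again.

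The sampling history differed between the groups. In ASPC_Pre, 31 biopsies were first extractions and 12 were from cells sampled once, whereas in ASPC_Post 24 were second extractions, from cells already sampled before induction, and 13 were from cells sampled once. Libraries before and after induction are labelled as the same cell for 9 cells. These pairs come from the labels alone, and which of them passed the barcode and quality checks of the study was not determined here. No ASPCs were kept for 2 days without the cocktail, so the cocktail, its 4 agents and the time in culture cannot be told apart. The labels name no separate cultures or mice, so each group is 1 sample. There is no replicate check, no test was run, and a gene is counted here when its levels differ at least 2-fold.

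ASPCs are the fibroblast-like precursors of fat cells. In culture, a glucocorticoid, an agent that raises cAMP, insulin and an agonist of the nuclear receptor PPARG together start a cascade in which CEBPB and CEBPD act early and PPARG and CEBPA later switch on the genes of lipid storage. The same cells carry actin stress fibres and a collagen matrix, both of which are remodelled as precursors round up and fill with lipid.

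Total counts per library were 155123 to 1502418 (median 509637) in ASPC_Pre and 275404 to 1603790 (median 608826) in ASPC_Post. Levels are given in CPM, a gene's counts scaled to one fixed total of kept counts in each cell or group, where kept counts leave out 20 genes that the study read in its empty controls and 92 ribosomal protein genes. Kept counts had medians of 364923 and 425109, and the genes detected per cell had medians of 6153 in ASPC_Pre and 5789 in ASPC_Post. Mitochondrial transcripts took a median of 3.03% of all counts in ASPC_Pre (0.311% to 26.98%) and 8.20% in ASPC_Post (1.08% to 27.3%). A group's level is the CPM of counts summed over its cells. The 95% interval of a fold is exact for read counts, covers counting error only and leaves out the spread between cells. Since reads carried no molecular identifiers, copies of the same molecule count as separate reads, so the intervals are too narrow. For a gene with no count in a group, the exact binomial interval still reaches 8.22% of the 43 ASPC_Pre cells and 9.49% of the 37 ASPC_Post cells. In such sums, fewer cells with a transcript and less of it per cell cannot be told apart, so cell counts are given alongside.

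Whole-cell libraries of ASPC_Pre (44) and ASPC_Post (35) exist in batch 9_1 and were compared with the biopsies one by one. With the group means taken out of log2(CPM + 10) and EGFP left out, 31 of the 37 ASPC_Post biopsies and a whole-cell library of the same state were each other's best match across genes, with a median r of 0.22 (0.11 to 0.61) and a median of 0.13 for the next best. The same held for 35 of the 43 ASPC_Pre biopsies (median r of 0.25, next best 0.15). Biopsies paired so with whole-cell libraries of the other state in 8 and 6 cases, and biopsies of the ASPC_Pre batch 8_8 with its own whole cells in 4 of 18. EGFP followed the matches: all 7 matched ASPC_Post biopsies and all 11 matched ASPC_Pre biopsies with at least 100 EGFP counts had a partner with at least 100, against 1 of 24 and 5 of 24 for the other matched biopsies. Among the 9 cells labelled as sampled before and after induction, 6 first extractions also had such a partner, although by these labels the cells lived on. The labels describe separate libraries, and what the paired libraries share was not tested. Because of these matches, the whole-cell values are set beside the biopsies once, at the end, and carry no weight of their own.

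Across the genome, 8629 features, the EGFP reporter among them, could be compared. At least 2-fold higher in ASPC_Post were 1130 (13.1%) and at least 2-fold lower were 1489 (17.3%). A 4-fold difference was reached by 3.62% and 4.73%. The median log2 ratio of all genes was -0.17 (quartiles -0.75 and 0.49), so gene groups are read against -0.17 and not 0, and their counts against 13.1% higher and 17.3% lower. With TMM factors or a median of ratios, this median moved by 0.17 to about 0, and the higher genes made up 55.3% and 55.5% of those past 2-fold instead of 43.1%.

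**Figure D1:**
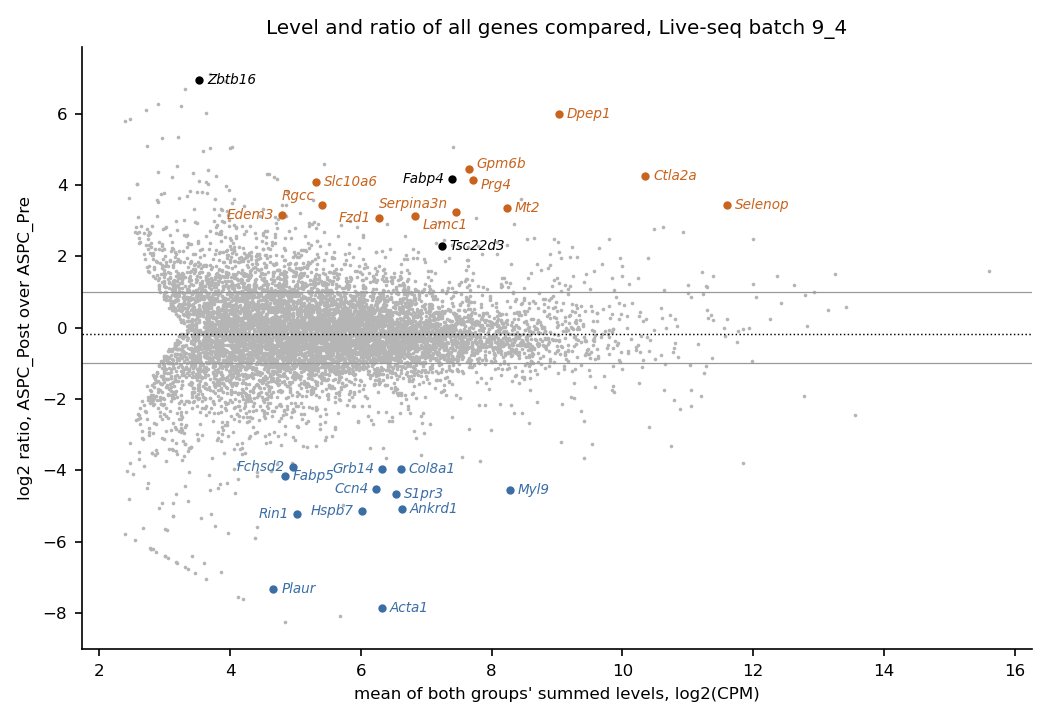
Each point is 1 of 8629 features, by the mean of both groups' summed levels (log2 CPM, x axis) and the log2 ratio of ASPC_Post over ASPC_Pre (y axis). Grey lines mark 2-fold, the dotted line the median of -0.17; the 12 largest differences on each side among well detected genes are named in orange and blue, and the 3 marker genes in black.

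The largest ratio among well detected genes was that of Dpep1 (chr8:123186242-123201812 of GRCm38, plus strand), a membrane dipeptidase, at 16.03 CPM in ASPC_Pre and 1026 CPM in ASPC_Post. Single cells ranged from 0 to 136 CPM in ASPC_Pre, with a median of 0, and from 0 to 7490 CPM in ASPC_Post, with a median of 486.7. Reads were found in 14 of 43 and 32 of 37 cells, and the levels of most ASPC_Post cells lay above every ASPC_Pre cell although the ranges overlapped from 0 to 136 CPM. The summed level was 64.02-fold higher (56.6 to 72.7).

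Selenop, the plasma selenium carrier, was the most abundant of these genes. Its levels ran from 0 to 2728 CPM (median 284.8) in ASPC_Pre and from 302.9 to 21722 CPM (median 3643) in ASPC_Post. All 37 ASPC_Post cells had reads, the ranges overlapped between 302.9 and 2728 CPM, and the sum was 10.9-fold higher (10.6 to 11.1). Mt2, a metal-binding metallothionein, lay between 0 and 243.2 CPM (median 43.1) before and between 102.2 and 1169 CPM (median 496.6) after. Taking every ASPC_Pre cell against every ASPC_Post cell, the ASPC_Post cell had more Mt2 in 99.2% of 1591 pairings, the highest share of any gene, followed by Mt1 at 97.1%, the endothelial-type receptor gene Heg1 at 94.03% and Selenop at 93.6%.

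Gpm6b, a neuronal-type membrane proteolipid, was 21.8-fold higher, with reads in 10 of 43 and 24 of 37 cells. Ctla2a, a cysteine protease inhibitor, was 19.0-fold higher, but a single ASPC_Post cell at 27530 CPM gave 38.1% of its single-cell CPM. Without each group's highest cell its log2 ratio was 3.74 instead of 4.25. Prg4, the surface lubricant lubricin, was 17.7-fold higher (22.3 and 395.6 CPM). Slc10a6, a carrier of sulphated steroids, was 16.8-fold higher, with reads in 3 of 43 and 21 of 37 cells. The others of the 12 largest were Rgcc, Serpina3n, Edem3, Lamc1 and Fzd1, between 8.38-fold and 10.8-fold higher.

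On the lower side the largest ratio was that of Acta1, skeletal muscle alpha-actin. It stood at 159.4 CPM in ASPC_Pre, where cells ranged from 0 to 2021 CPM with a median of 2.59. In ASPC_Post its sum was 0.688 CPM and no cell exceeded 10.1 CPM. It was 231.6-fold lower (129 to 464.5), with reads in 25 of 43 and 5 of 37 cells. Plaur, the urokinase receptor, was 160.8-fold lower (68.6 to 496.6), with reads in 26 and 2 cells. Myl9, a regulatory light chain of myosin, was 23.4-fold lower, at 597.7 and 25.6 CPM, with reads in 37 and 10 cells. The stretch-induced Ankrd1 was 33.7-fold lower, the small heat shock protein gene Hspb7 35.3-fold, the sphingosine receptor gene S1pr3 25.3-fold and the matricellular Ccn4, a WNT-induced gene, 23.1-fold. Fabp5, a fatty acid carrier of the same family as Fabp4, was 18.03-fold lower (54.1 and 3.003 CPM). Rin1, Col8a1, Grb14 and Fchsd2 completed the 12, between 15.04-fold and 37.4-fold lower. With each group's highest cell left out, the log2 ratio moved from -7.33 to -7.92 for Plaur, from -5.14 to -6.47 for Hspb7 and from -4.53 to -5.58 for Ccn4.

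Of the 3 marker genes, 2 answer to glucocorticoids. Tsc22d3 (chrX:140539528-140600659, minus strand), which encodes the glucocorticoid-induced leucine zipper, had 0 to 588.4 CPM in ASPC_Pre (median 16.4) and 0 to 1877 CPM in ASPC_Post (median 137.7). It was 4.93-fold higher (4.57 to 5.32), and cells with reads made up 58.1% in ASPC_Pre and 83.8% in ASPC_Post. Thinned to 100000 kept counts per cell, these shares were 52.4% and 83.8%. The transcription factor gene Zbtb16 (chr9:48654297-48836222, minus strand) had no count in any ASPC_Pre cell, and 12 of 37 ASPC_Post cells had reads, up to 171.4 CPM. Set against a floor of 3 counts over the group, its sum of 23.1 CPM was 122-fold higher, and the interval of the fold began at 99.04.

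Fabp4 (chr3:10204088-10208576, minus strand), the fatty acid carrier that marks maturing adipocytes, differed in a sum set by few cells. Its sum was 17.99-fold higher, at 17.7 and 318.9 CPM, but fewer cells had reads, 11 of 37 in ASPC_Post against 20 of 43 in ASPC_Pre. In ASPC_Pre the highest cell had 481.8 CPM. In ASPC_Post 1 cell had 10114 CPM and the next 291.7 CPM. This cell gave 95.01% of the group's single-cell CPM, and the summed level was 14.2 CPM without it. Without each group's highest cell the log2 ratio was 0.06 instead of 4.17, and without the 9 same-cell pairs, which include that cell, it was -0.17.

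That cell, described here after its value was seen, was a second extraction with 8429 genes detected, and Fabp4 had been at 0 in its first. Its levels of Dpep1 (7490 CPM), Scd1 (4805 CPM), Plin2 (2829 CPM) and Lpl (931.1 CPM) were the highest of the 37, and Angptl4 (1574 CPM), Pparg (74.7 CPM) and Cebpa (22.8 CPM) ranked second. Adipoq, Plin1, Cidec and Cd36, which mark later fat cells, had no count in it, and neither did Acta2.

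**Figure D2:**
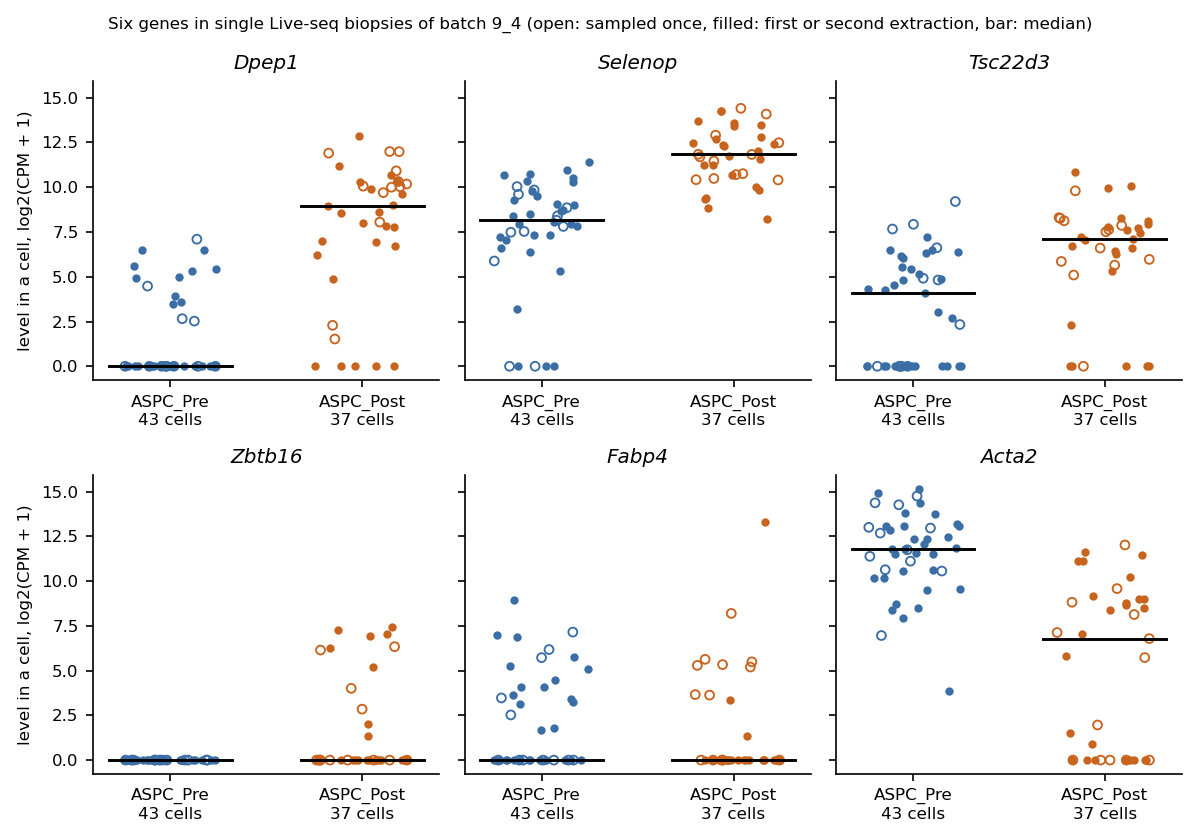
Levels of 6 genes in single biopsies, as log2(CPM + 1), with open points for cells sampled once, filled points for first or second extractions and a bar at the median. ASPC_Post cells sit higher for Selenop, Dpep1 and Tsc22d3 and lower for Acta2, Zbtb16 has reads in 12 ASPC_Post cells and no ASPC_Pre cell, and for Fabp4 1 ASPC_Post cell stands far above all others.

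Gene groups were then read by agent of the cocktail. Of 20 glucocorticoid-responsive genes compared, 14 were at least 2-fold higher and 1 lower, and their median log2 ratio was 1.67. Per1, a circadian repressor, was 21.4-fold higher (13.4 to 36.5), with reads in 3 of 43 and 23 of 37 cells. The FK506-binding co-chaperone gene Fkbp5 was 16.4-fold higher (1.45 and 23.8 CPM), Mt1 was 6.45-fold higher (523.4 and 3377 CPM), and Glul, Sgk1 and Errfi1 were 5.99-fold, 5.29-fold and 3.34-fold higher. Klf9 (41.1 and 65.3 CPM), Dusp1 (197.5 and 251.7 CPM) and Cebpd (76.9 and 81.8 CPM) stayed within 2-fold. The receptor gene itself, Nr3c1, had 51.1 CPM in ASPC_Pre and 27.2 CPM in ASPC_Post, also within 2-fold. Tgm2, a transglutaminase, was the member on the lower side, 4.85-fold lower. A single ASPC_Pre cell held 71.5% of the single-cell CPM of Per1 in its group. With each group's highest cell left out, the log2 ratio moved from 4.42 to 6.37 for Per1 and from 2.58 to 3.22 for Glul.

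Summed per cell, the glucocorticoid-responsive genes took 0.0409% to 0.556% of kept counts in ASPC_Pre (median 0.160%) and 0.207% to 1.42% in ASPC_Post (median 0.657%). The ranges overlapped, and 27 of 37 ASPC_Post cells lay above every ASPC_Pre cell. A few abundant genes weigh heavily in this share. Of the list's summed level, 1799 CPM in ASPC_Pre and 7281 CPM in ASPC_Post, Mt1 gave 523.4 and 3377 CPM. Errfi1 gave 468.1 and 1564 CPM, and Mt2 53.4 and 550.98 CPM. Mt1 and Mt2 also belong to the redox and stress list.

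Among 11 cAMP-responsive genes compared, 5 were higher and 0 lower, with a median log2 ratio of 0.98. Besides Per1 these were Crem (28.9 and 96.1 CPM), which encodes a cAMP-responsive repressor, Fos (26.2 and 70.3 CPM), and the cAMP phosphodiesterase genes Pde4d (12.1 and 35.8 CPM) and Pde4b (10.6 and 28.4 CPM). A single ASPC_Post cell gave 55.96% of the single-cell CPM of Crem, and without each group's highest cell the log2 ratio of Crem was 1.28 instead of 1.73. Treated the same way, Pde4b moved from 1.42 to 0.81, within 2-fold, and Fos from 1.43 to 2.17.

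PPARG targets showed no common direction. Of 22 compared, 4 were higher and 2 lower, and the median log2 ratio was -0.01. Higher were Fabp4, carried by 1 cell, Angptl4, an inhibitor of lipoprotein lipase (27.98 and 122 CPM), Fndc3b (98.2 and 205.02 CPM) and the lipid droplet gene Hilpda (13.6 and 28.1 CPM). Lower were Fabp5 and the mitochondrial carnitine carrier gene Slc25a20 (115 and 46.3 CPM). Plin2, which coats lipid droplets, had 398.04 CPM in ASPC_Pre and 263.4 CPM in ASPC_Post, and Lpl, lipoprotein lipase, 90.03 and 111.2 CPM, both within 2-fold.

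Of 17 adipogenic transcription factor genes compared, 4 were higher and 0 lower, and the median was 0.09. Alongside Zbtb16 these were Klf15 (1.57 and 22.1 CPM), a factor upstream of Pparg, Rxra (16.5 and 56.1 CPM), the partner receptor of PPARG, and the repressor gene Bcl6 (4.97 and 17.1 CPM). Klf15 had 90.8% of its single-cell CPM in ASPC_Pre in 1 cell, and its log2 ratio was 5.83 instead of 3.82 without each group's highest cell. Rxra was higher in the extraction series (log2 ratio 2.33) and at 0.05 in cells sampled once. Pparg itself, at 7.48 and 7.76 CPM with reads in 8 of 43 and 6 of 37 cells, and Cebpa, at 0.314 and 3.19 CPM with reads in 2 and 8 cells, were too low for the comparison. Among 13 genes listed here as inhibitors of adipogenesis, 2 were higher and 3 lower (median -0.53). Id2 was 3.80-fold and Foxo1 3.24-fold higher. Hes1 and Runx1t1 were 2.79-fold and 3.56-fold lower, as was Gata2 at 2.06-fold. The listing is not a result, and whether Id2 or the others hold adipogenesis back in these cells was not tested.

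Genes of lipid synthesis and storage leaned to the higher side, with 8 of 27 higher, 2 lower and a median of 0.19. Scd1, the main stearoyl-CoA desaturase, had 0 to 907.2 CPM (median 110) in ASPC_Pre and 0 to 4805 CPM (median 413.6) in ASPC_Post, and its sum was 4.18-fold higher (4.02 to 4.36). Scd2 was 2.26-fold higher, fatty acid synthase (Fasn) 2.18-fold, acetyl-CoA carboxylase (Acaca) 3.10-fold, Acsl4 2.90-fold and the fatty acid transporter gene Slc27a4 4.25-fold. Lpin2 was 6.99-fold higher, with 59.2% of its single-cell CPM in ASPC_Post in 1 cell. Its log2 ratio was 2.10 instead of 2.81 without each group's highest cell. The malic enzyme gene Me1 was 2.14-fold lower.

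Cholesterol synthesis showed 2 higher and 2 lower genes of 25 (8% each, median -0.06), both shares below those of all genes. Mvd (47.5 and 117 CPM) and the regulator gene Srebf2 (33.2 and 71.9 CPM) were higher, and Fdps and Ebp were lower. Srebf2 was lower in cells sampled once, at a log2 ratio of -0.85, and stood at 0.92 instead of 1.12 without each group's highest cell.

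In the insulin, IGF and glucose group, 7 of 23 genes were higher and 3 lower (median 0.48). Several IGF-binding protein genes differed, in both directions. Igfbp6 was 3.48-fold higher (368.9 and 1282 CPM), and Igfbp3 and Igfbp5 were 20.5-fold and 12.9-fold higher from levels near 1 CPM. Igfbp2 was 271.8-fold lower, but 1 ASPC_Pre cell at 5896 CPM held most of its reads and only 7 of 43 cells had any. The glycolytic gene Pgk1 was 2.603-fold and the glucose transporter gene Slc2a1 2.09-fold higher, the insulin receptor gene Insr 2.76-fold higher, and Igf1 2.55-fold lower. Leaving out each group's highest cell moved the log2 ratio from -8.09 to -6.35 for Igfbp2, from 4.36 to 6.02 for Igfbp3, to 4.28 for Igfbp5 and from 1.07 to 0.97 for Slc2a1.

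**Figure D3:**
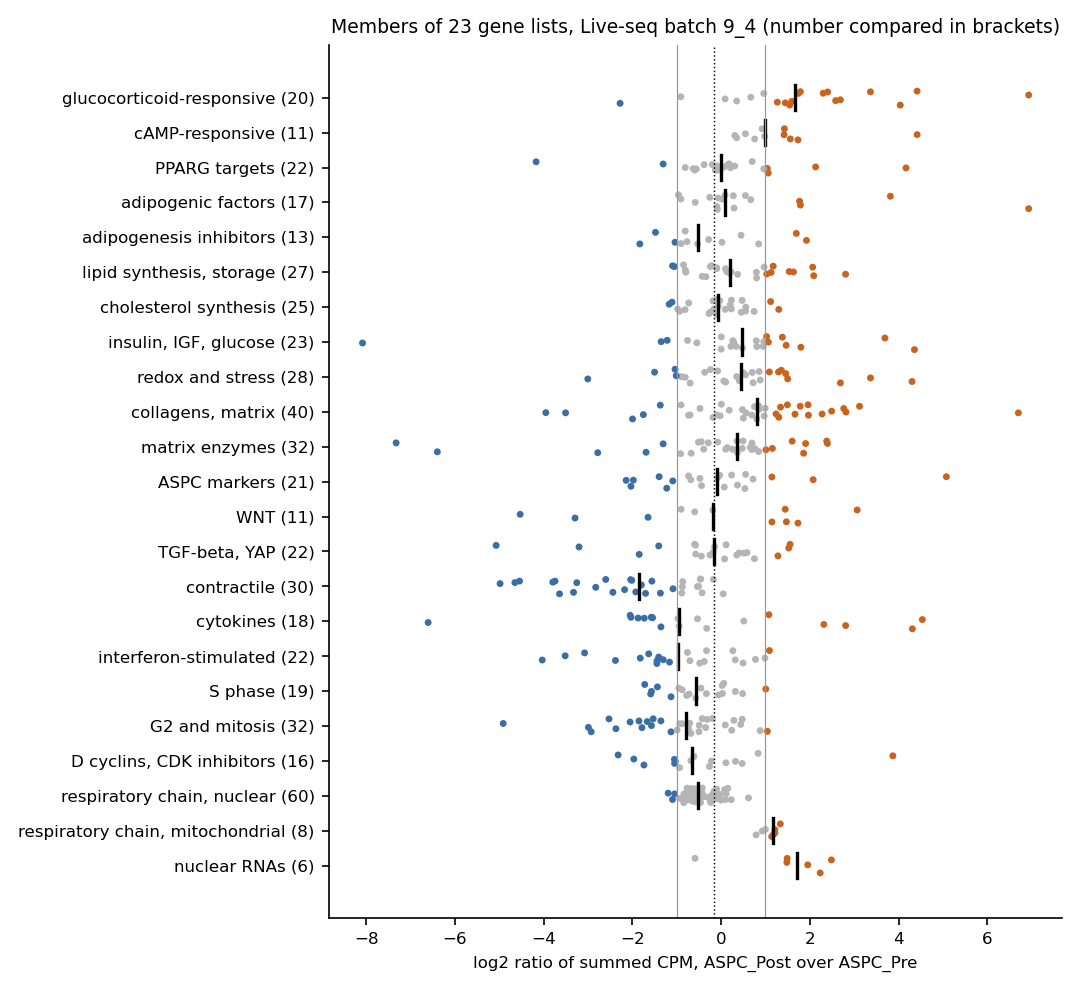
Each point is a gene of 1 of 23 lists, by its log2 ratio of ASPC_Post over ASPC_Pre (x axis), in orange when at least 2-fold higher, in blue when at least 2-fold lower and in grey otherwise. Black bars mark list medians, the dotted line the median of all genes (-0.17), and brackets give the number compared; the contractile list (median -1.86) lies furthest to the left and the glucocorticoid list (1.67) and nuclear RNAs (1.72) furthest to the right.

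The contractile and cytoskeletal genes had the lowest median of the 23 lists with more than 2 genes compared, -1.86, with 20 of 30 lower and 0 higher. Acta2, smooth muscle actin, ranged from 13.4 to 36493 CPM (median 3591) in ASPC_Pre and from 0 to 4137 CPM (median 109.3) in ASPC_Post. It had reads in 43 of 43 and 24 of 37 cells, and its sum was 13.9-fold lower (13.6 to 14.2). Actb, cytoplasmic beta-actin and the most abundant member, had 3042 to 46920 CPM (median 17549) and 513.4 to 11189 CPM (median 3010), and was 5.43-fold lower. The ranges of both genes overlapped.

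Filament and motor genes shared this direction. The intermediate filament gene Vim was 3.80-fold lower (11097 and 2923 CPM), the tropomyosin genes Tpm1 and Tpm2 10.0-fold and 9.55-fold, and the calponin genes Cnn1 and Cnn2 13.4-fold and 12.5-fold. Tagln, an actin-binding protein of smooth muscle, was 7.10-fold lower, Actg1 6.07-fold, the adhesion gene Vcl 3.26-fold and the myosin light chain gene Myl6 2.58-fold. Mylk, the myosin light chain kinase, was 25.1-fold lower, and Actg2 31.7-fold lower with 97.2% of its single-cell CPM in ASPC_Post in 1 cell. The log2 ratios of Actg2 and Mylk were -4.98 and -4.65, and -8.64 and -5.66 without each group's highest cell. Cald1 (2638 and 1906 CPM) and Synpo2 (14.7 and 15.2 CPM) stayed within 2-fold.

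In single cells the list took 1.70% to 12.8% of kept counts in ASPC_Pre (median 5.59%) and 0.414% to 2.94% in ASPC_Post (median 1.42%). The ranges met between 1.70% and 2.94%, and 27 of 37 ASPC_Post cells lay below every ASPC_Pre cell. Over all cell pairings, 13 genes were higher in the ASPC_Post cell in at most 10% of them. These included Actb (5.53%), Tpm1, Tpm2, Vim and Acta2 and also, outside the list, the galectin gene Lgals1 (1.82%, 2831 and 698.1 CPM), the actin-sequestering thymosin gene Tmsb4x (6.03%, 3503 and 757.6 CPM) and the profilin gene Pfn1.

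**Figure D4:**
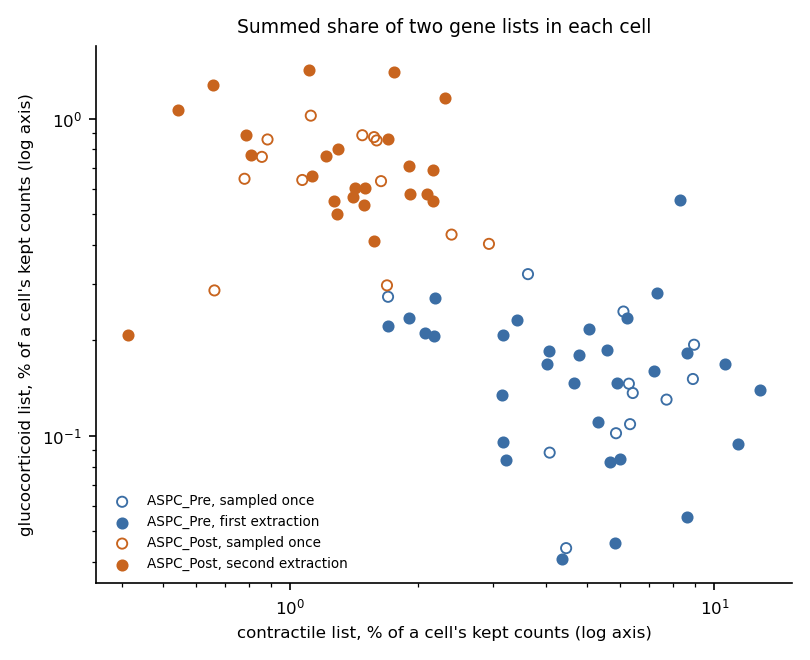
Each point is 1 cell, by the share of its kept counts taken by the contractile list (x axis, log scale) and by the glucocorticoid list (y axis, log scale), both in percent, with open points for cells sampled once. ASPC_Pre cells fill the lower right, with medians of 5.59% and 0.160%, and ASPC_Post cells the upper left, with medians of 1.42% and 0.657%.

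Many actin genes are switched on by serum response factor, which binds a motif known as the CArG box. With these results known, both strands of RefSeq promoter windows (250 bases before to 50 after the start of a gene, GRCm38.p6) were searched for it. It was found in 1.63% of 32851 windows. Of the 20 lower contractile genes, 17 had a window and 5 of these held a CArG box (Actg1, Cnn2, Myl6, Myl9 and Vcl), and of the other 10 contractile genes 1 did (Lima1). Acta1 also had one, Hspb7 and Ankrd1 had none in their windows. The stretches below show 6 promoters 5′ to 3′ in the direction of the gene, with the box in capitals. They were chosen from genes at least 2-fold lower here because they hold a match, not by the size of the difference. Only the exact form of the box was searched for. A match describes the sequence, and binding was not measured.
Acta1 (chr8:123894794-123894893, minus strand): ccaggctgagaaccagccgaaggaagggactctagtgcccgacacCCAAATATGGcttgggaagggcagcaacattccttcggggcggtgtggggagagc
Actg1 (chr11:120348531-120348630, minus strand): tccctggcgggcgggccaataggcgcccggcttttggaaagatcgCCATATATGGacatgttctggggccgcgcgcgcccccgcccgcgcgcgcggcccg
Cnn2 (chr10:79988499-79988598, plus strand): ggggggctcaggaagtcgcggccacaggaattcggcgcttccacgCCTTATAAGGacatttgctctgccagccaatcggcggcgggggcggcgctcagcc
Myl6 (chr10:128493010-128493109, minus strand): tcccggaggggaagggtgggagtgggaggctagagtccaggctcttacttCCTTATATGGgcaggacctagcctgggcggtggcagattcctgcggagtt
Myl9 (chr2:156775258-156775357, plus strand): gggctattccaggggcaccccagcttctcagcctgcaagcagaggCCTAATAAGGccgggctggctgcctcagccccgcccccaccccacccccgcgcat
Vcl (chr14:20929148-20929247, plus strand): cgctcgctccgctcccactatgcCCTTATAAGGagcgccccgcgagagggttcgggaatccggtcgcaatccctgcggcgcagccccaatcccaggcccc

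Of 40 collagens and other proteins of the extracellular matrix, 14 (35%) were higher and 5 (12.5%) lower, against 13.1% and 17.3% of all genes, with a median of 0.81. By the mean of single-cell CPM this median was 0.37. Per cell, the list took a median of 1.83% of kept counts in ASPC_Pre and 2.05% in ASPC_Post. This share was higher in the ASPC_Post cell in 53.9% of pairings, and in the same-cell pairs it was higher after induction in 4 and lower in 5. The fibrillar collagen gene Col3a1 had 0 to 2761 CPM (median 174) in ASPC_Pre and 0 to 16470 CPM (median 474.1) in ASPC_Post, a 7.04-fold higher sum. Its log2 ratio was 0.78 in cells sampled once and 3.52 in the extraction series. The basement membrane genes Col4a1 (206.3 and 999.5 CPM), Col4a2 (112.6 and 632.9 CPM), Lamc1 (23.3 and 202.9 CPM) and Nid1 (222.8 and 706.6 CPM) were 3.17-fold to 8.70-fold higher, and the matricellular genes Thbs2 and Postn were 6.79-fold and 3.89-fold higher.

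Thbs1, in contrast to its relative Thbs2, was 3.37-fold lower (2459 and 729.03 CPM), as were Tnc (3.99-fold) and Col8a1 (15.5-fold). The type I collagen genes Col1a1 (873.3 and 628.2 CPM) and Col1a2 (623.2 and 549.4 CPM) stayed within 2-fold. Col5a3 had 2 counts in ASPC_Pre against 19.6 CPM in ASPC_Post, 104.2-fold against the floor of 3 counts with an interval of 42.9 to 1296. Its log2 ratio moved from 6.70 to 5.52 with each group's highest cell left out.

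Among 32 enzymes that build or cut the matrix and their inhibitors, 7 (21.9%) were higher and 5 (15.6%) lower (median 0.35), the latter near the 17.3% of all genes. The collagen prolyl hydroxylase gene P4ha2 was 5.27-fold higher (165.2 and 870 CPM) and the procollagen peptidase gene Adamts2 5.21-fold. Mmp3 (375.5 and 1139 CPM) was higher as a sum, with fewer cells with reads (24 of 43 and 16 of 37), and lower in cells sampled once (log2 ratio -0.36). Timp3, an inhibitor of metalloproteinases, was 6.88-fold lower (2376 and 345.3 CPM), with medians of 1325 and 191.6 CPM. The protease gene Mmp10 was 84.4-fold lower from 21.1 CPM (log2 ratio -6.40, and -5.22 without each group's highest cell), and the urokinase gene Plau was 3.23-fold lower alongside its receptor Plaur.

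Of 22 TGF-beta and YAP-related genes, 3 (13.6%) were higher and 4 (18.2%) lower with a median of -0.16, all 3 values near those of all genes (13.1%, 17.3% and -0.17). The receptor genes Tgfbr1 and Tgfbr3 and the repressor gene Skil were 2.43-fold to 2.94-fold higher. Ankrd1, the BMP antagonist gene Grem1 (960 and 104.1 CPM, 9.22-fold), the activin subunit gene Inhba (368.5 and 139 CPM) and Ltbp1 were lower. Ccn1 (502.4 and 530 CPM) and Ccn2 (481.3 and 323.2 CPM), which share the YAP regulator with Ankrd1, stayed within 2-fold.

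For the WNT pathway, 5 of 11 genes were higher and 3 lower, with a median of -0.19 that was 0.66 in cells sampled once and 0.60 without the same-cell pairs. The higher ones were receptors and a ligand, namely Fzd1 (8.38-fold), Fzd4, Fzd7, Lrp6 and Wnt2. The lower ones were the secreted Dkk2 (9.81-fold) and Dkk3 (3.13-fold) and the target gene Ccn4. Dkk2 moved from a log2 ratio of -3.29 to -4.04, and Ccn4 from -4.53 to -5.58, with each group's highest cell left out.

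Markers of ASPCs were checked next. Ly6a (Sca1) had reads in 42 of 43 and 37 of 37 cells, at 1256 and 1841 CPM, and Pdgfra in 23 and 19 cells, at 49.7 and 64.1 CPM. Dpp4 and Pi16, which mark the earliest progenitors, had reads in at most 2 cells of a group. Of 21 marker genes compared, 3 were higher and 6 lower (median -0.08). The adhesion receptor gene Cd44 was 4.42-fold lower, the tissue factor gene F3 3.94-fold, Icam1 4.09-fold, Thy1 2.64-fold and Anxa3 2.13-fold. Cd24a was 4.21-fold higher, and Fmo2 33.8-fold higher with 84.2% of its single-cell CPM in ASPC_Post in 1 cell.

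Of 12 markers of mature adipocytes, 9 had no count in either group (Adipoq, Plin1, Cidec, Lep, Retn, Cfd, Slc2a4, Aqp7 and Pck1). None passed the filter, and their summed level was 2.07 CPM in ASPC_Pre and 11.6 CPM in ASPC_Post. Lipe, hormone-sensitive lipase, had 0.692 and 7.07 CPM with reads in 3 and 9 cells. Of the brown and beige markers, the 1 compared, Ebf2, stayed within 2-fold (31.4 and 38.04 CPM). Few markers of other cell types could be compared. Csf1r had reads in 22 of 43 and 12 of 37 cells and Krt19 in 14 and 1. Ncam1 had reads in 27 and 25 cells and stood above Pdgfra in both groups. Of 10 macrophage markers, Csf1r (42.7 and 12.1 CPM) and Lyz2 (26.03 and 3.57 CPM) were compared and were lower in ASPC_Post, while Ptprc had 1 count in all. Endothelial (1 of 8 compared), mesothelial or epithelial (1 of 8) and Schwann cell markers (1 of 6) gave Egfl7 (10.2 and 4.82 CPM, log2 ratio -1.08, and -0.95 without each group's highest cell), Krt19 (36.8 CPM and a single count) and Ncam1 (67.7 and 143.3 CPM). Mural and lymphocyte markers gave no gene to compare. Their part in the results was not tested.

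Immune mediators differed by class. Of 18 cytokine and complement genes, 5 were higher and 8 lower (median -0.96). Il6 had reads in 17 of 43 ASPC_Pre cells, at 18.3 CPM, and in no ASPC_Post cell. Against the floor of 3 counts it was 97.5-fold lower, and the interval of the fold began at 78.8. The chemokine genes Ccl2 (1050 and 410 CPM), Cxcl12 (360.6 and 124 CPM) and Ccl11 (237.5 and 71.4 CPM) were 2.56-fold to 3.32-fold lower. The complement gene C3 was 23.2-fold higher from a level below 3 CPM, with reads in 8 of 37 cells and a log2 ratio of 5.75 instead of 4.54 without each group's highest cell, and the pentraxin gene Ptx3 was 4.98-fold higher (56.1 and 279.4 CPM).

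Among 22 interferon-stimulated genes, 11 were lower and 1 higher (median -0.96). This median was -1.99 in cells sampled once and -0.69 in the extraction series. Ifit3 was 8.45-fold lower, Usp18 16.4-fold, Gbp2 11.4-fold and Bst2 2.24-fold. In ASPC_Pre, Usp18 had reads in 14 and Gbp2 in 8 of 43 cells, and the highest cell gave 67.8% and 56.4% of their single-cell CPM. The log2 ratio of Gbp2 was -0.31 in cells sampled once, at levels near the floor, and 2.52 in the same-cell pairs. The higher one, Ifit1 (72.5 and 154.3 CPM), had all its ASPC_Post reads in 1 cell at 9774 CPM, against reads in 13 ASPC_Pre cells. Without each group's highest cell its log2 ratio was -8.19, while Usp18 moved from -4.03 to -3.37 and Gbp2 from -3.52 to -5.24.

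Of 28 redox and stress genes, 8 were higher and 4 lower (median 0.45). Mt1 and Mt2, already counted in the glucocorticoid list, were among the higher ones. The list took 2.07% of the summed kept counts in ASPC_Pre and 4.18% in ASPC_Post. Extracellular glutathione peroxidase, Gpx3, was the most abundant, at 61.3 to 24209 CPM (median 3912) and 680 to 75676 CPM (median 9998), 2.83-fold higher. Its log2 ratio was 0.03 in cells sampled once and 1.95 in the extraction series. The peroxiredoxin gene Prdx6 was 2.75-fold higher (2823 and 7749 CPM), at log2 ratios of 1.53 and 1.44 in those cells. Srxn1 was 2.56-fold and the cystine carrier gene Slc7a11 19.8-fold higher. Nqo1 (468.3 and 165.4 CPM), Gpx1 (580 and 287.6 CPM) and the heat shock gene Hspa1a (12.1 and 1.501 CPM) were lower, Hspa1a at a log2 ratio of -3.01 that was -2.32 without each group's highest cell, and Nqo1 at log2 ratios of 0.16 in cells sampled once and -2.18 in the extraction series.

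Most cell cycle genes stayed within 2-fold. Of 32 G2 and mitosis genes, 13 (40.6%) were lower and 1 higher (median -0.80), of 19 S phase genes 5 (26.3%) and 1 (median -0.57), and of 16 D-type cyclin and CDK inhibitor genes 6 (37.5%) and 1 (median -0.65), against 17.3% of all genes that were lower. The mitotic genes Tpx2, Psrc1 and Ect2 were 7.62-fold, 5.18-fold and 7.96-fold lower, and Aurkb had reads in 8 of 43 and 1 of 37 cells. With each group's highest cell left out, Tpx2 moved from a log2 ratio of -2.93 to -4.25, Ect2 from -2.99 to -3.81 and Aurkb from -4.91 to -5.78. The G2 and mitosis median was -0.15 without the same-cell pairs, close to that of all genes. Ccnd1, cyclin D1, was 5.00-fold lower (1099 and 220 CPM), and Ccnd2 was 2.07-fold lower. The 2 CDK inhibitors of the same family went opposite ways, with Cdkn1a (p21) 3.34-fold lower (1405 and 420.6 CPM) and Cdkn1b (p27) 14.6-fold higher (2.01 and 29.5 CPM).

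Of 60 respiratory chain genes encoded in the nucleus, 3 (5%) were lower and 0 higher (median -0.53), fewer than the 17.3% and 13.1% of all genes. The lower ones were Sdhb, Atp5g1 and Ndufb8, all under 2.30-fold. Of 8 encoded in mitochondria, 5 were higher and 0 lower (median 1.16), among them mt-Co1 (3870 and 8821 CPM) and mt-Nd5 (2459 and 5698 CPM). By the mean of single-cell CPM the median of these mitochondrial genes was 0.76. The log2 ratios of mt-Co1 and mt-Nd5 were then 0.88 and 0.87, within 2-fold.

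Long RNAs kept in the nucleus were also read, since a biopsy holds cytoplasm. Of 6 compared, 5 were higher and 0 lower, with the highest median of the 23 lists (1.72). Malat1 had 0 to 24510 CPM (median 39.6) and 0 to 78192 CPM (median 201.4), and was 5.61-fold higher as a sum with reads in 34 of 43 and 28 of 37 cells. Neat1 was 3.87-fold higher, at a log2 ratio of 1.95 that was 3.05 without each group's highest cell. Summed per cell, the list took a median of 0.0162% of kept counts in ASPC_Pre and 0.0201% in ASPC_Post, whereas the Malat1 medians lay further apart. The ASPC_Post cell had the higher share in 59.5% of pairings. The median log2 ratio of the list was 3.45 in cells sampled once, 1.42 in the extraction series and 4.29 in the same-cell pairs. Its part in the other differences was not tested.

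The 9 cells labelled as sampled before and after induction were set side by side, and they are also part of the groups above. With the group means removed, 0 of the 9 first extractions had its own second extraction as best match among ASPC_Post biopsies. The contractile shares before and after barely met, so other pairings of these cells would give nearly the same count. The contractile list took 1.70% to 8.59% of kept counts (median 5.32%) in the first extraction and 0.414% to 1.70% (median 1.21%) in the second, and it was lower in 9 of 9 cells. The glucocorticoid list took 0.0554% to 0.282% (median 0.169%) and 0.207% to 1.06% (median 0.762%), and was higher in 9 of 9. The redox and stress list was also higher in 9 of 9, at medians of 1.64% and 4.01%. It shares Mt1 and Mt2 with the glucocorticoid list, so these counts are not separate.

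Summed over these 9 cells, the median log2 ratio of all genes was -0.51, with 17.1% at least 2-fold higher and 37.2% lower, so ratios in these pairs lean to the lower side. Over all first and second extractions the median was -0.23, with 14.1% higher and 22.6% lower. At the level of genes, 5 features of 8629 (0.0579%) were higher after induction in all 9 cells, among them Selenop, Mt2, the ferritin heavy chain gene Fth1 and the guanine deaminase gene Gda. Selenop had 0 to 1715 CPM (median 240.9) before and 653.95 to 19707 CPM (median 7091) after. Fth1 was abundant in the whole group too, at 24809 CPM in ASPC_Pre and 74859 CPM in ASPC_Post. Lower in all 9 cells were 45 genes (0.521%), including Acta2, Actb, Cnn2, Lasp1, Tmsb4x, Timp3, Thbs1 and Inhba. Acta2 had 333.4 to 8773 CPM (median 3492) before and 0 to 503.15 CPM (median 0) after. Dpep1 and Mt1 were higher in 8 of 9 cells and Fabp4 in 1, with Fabp4 lower in 4. Genes detected had medians of 6114 before and 4377 after and were fewer in 6 of 9 cells.

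**Figure D5:**
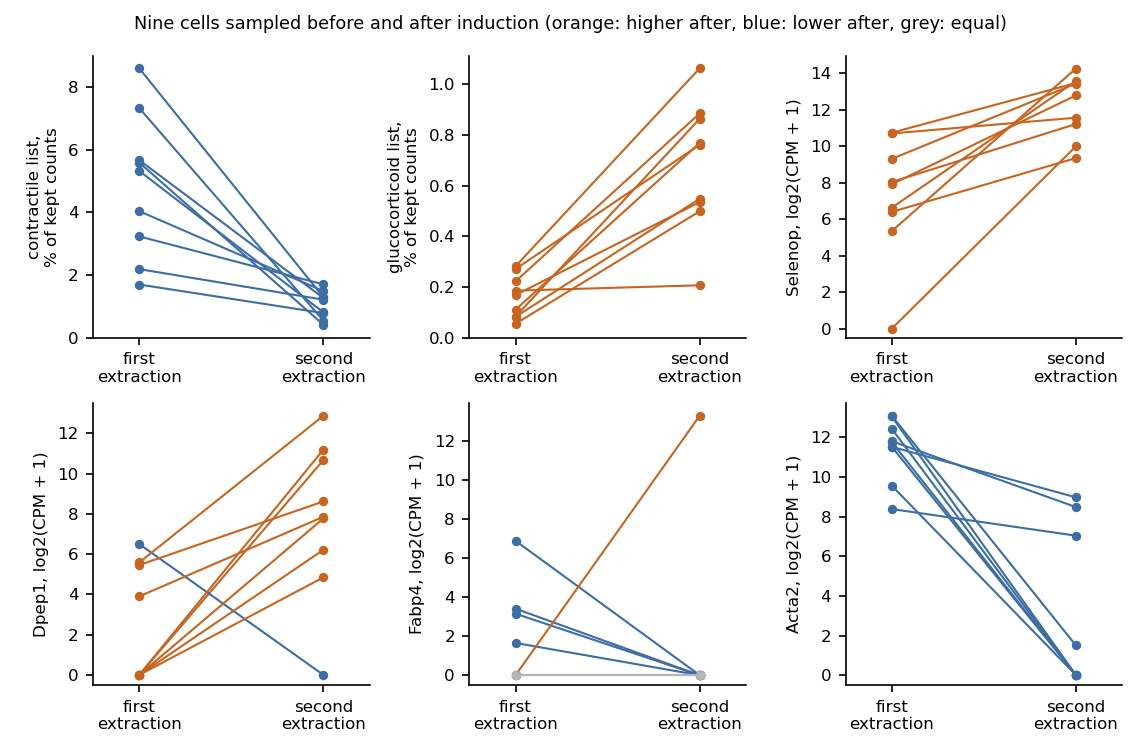
Each line is 1 of 9 cells, from its first extraction as ASPC_Pre to its second as ASPC_Post, for 2 list sums (% of kept counts) and 4 genes (log2(CPM + 1)), in orange when higher after, in blue when lower and in grey when equal. The contractile sum and Acta2 are lower in 9 of 9 cells, the glucocorticoid sum and Selenop higher in 9 of 9, and Fabp4 is higher in 1.

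Cells sampled once (12 and 13) and the extraction series (31 and 24) were also compared apart. Among cells sampled once, 21.4% of 8837 genes were higher and 21.8% lower, and in the series 14.1% of 8506 and 22.6%. Of 7900 genes compared in both, those higher in both kinds made up 30.9% of the 1499 higher in cells sampled once and 45.3% of the 1023 higher in the series, and those lower in both 41.6% of 1604 and 39.7% of 1683. Past 2-fold in opposite directions, 2.82% were higher in cells sampled once and 1.23% higher in the series. The contractile median was -1.58 in cells sampled once and -1.69 in the series, and the glucocorticoid median 1.95 and 1.66. EGFP reads were found in 2 of 13 ASPC_Post cells sampled once and 17 of 24 in the series, and in 8 of 12 and 21 of 31 ASPC_Pre cells. Detection of EGFP was thus uneven over these groups, and a biopsy without EGFP reads may still come from a barcoded cell.

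In the whole-cell libraries of batch 9_1, which share their pattern with the biopsies as described above, 14% of 9351 genes were higher in ASPC_Post and 11.1% lower. The contractile list had 23 of 30 genes lower and 0 higher, and the glucocorticoid list 14 of 21 higher and 1 lower. Dpep1 stood at 13.5 and 759.3 CPM, Selenop at 475.2 and 3321 CPM and Mt2 at 52.7 and 638.4 CPM. For Fabp4, 1 whole-cell library had 9495 CPM, and it and the biopsy at 10114 CPM were each other's best match (r = 0.54, next best 0.23).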

How the data were processed

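Counts of reads per gene for 1012 cells were deposited by the authors in 1 table of raw values; 819 columns of other cells were not used. The submitters' processing notes name bcl2fastq 2.19.1, STAR 2.6.1c, HTSeq and mm10. From these counts, 20 genes read in empty controls and 92 genes of ribosomal proteins were excluded, and counts were summed over a group's cells and divided by their total (15905558 and 15984215 kept counts). Genes needed at least 2 counts in 15% of a group's cells and 10 CPM in the higher group. A sum under 3 counts was set to a floor of 3. Intervals are exact 95% Poisson or Clopper-Pearson intervals for counting error.

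The gene lists, markers and genes named were chosen with earlier results of these data known. Named were the 12 genes with the largest ratio on each side among those with at least 50 CPM and reads in most cells of the higher group and 2-fold by the mean of single cells, the 3 markers, and up to 4 list members past 2-fold; further list members were chosen after their values were seen. Unnamed gene models and pseudogenes were counted but not named. Gene positions are from GENCODE vM21 (GRCm38). The labels give the 9 same-cell pairs. After the group means were removed, no pair's correlation across genes was above 0.1 (-0.08 to 0.09, median -0.02). The steps were tested on simulated data. Software was Python 3.11.15, numpy 2.4.6, scipy 1.17.1, pandas 2.3.3, matplotlib 3.10.9, R 4.3.3 and edgeR 4.0.16 (TMM factors only). Alternatives covered scaling, library size, depth, filter, fold limit and which cells entered.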

Additional observations from a re-analysis of the deposited data

How the results depend on the processing

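With 1 sample per group, no setting has a replicate error. The share of genes at least 2-fold higher (13.1%) became 21.4% (1894 genes) in cells sampled once, 14.5% (2745) with no CPM filter, 8.89% with reads in 50% of cells and 50 CPM required, and 3.62% at 4-fold. The share at least 2-fold lower (17.3%) became 19.4% (3688) with no CPM filter, 12.9% with the strict filter, 4.73% at 4-fold and 37.2% (3140) in the same-cell pairs, a setting chosen after seeing the data. Thinned to 100000 kept counts, genes detected among kept genes had medians of 5261 instead of 6057 in ASPC_Pre and 4969 instead of 5690 in ASPC_Post. Log2 ratios changed sign for Fabp4 (-0.17) without the same-cell pairs, for Srebf2 (-0.85), Mmp3 (-0.36) and Ifit1 (-7.28) in cells sampled once, for Ifit1 also without the same-cell pairs (-8.28) and without each group's highest cell (-8.19), and, in the same-cell pairs alone, for Gbp2 (2.52), Slc7a11 (-0.060) and Slbp (-0.83). The cause was not tested. Of the named genes, 100% kept their ratio within 1.5 times under TMM factors, 82.9% after thinning, 81% without the same-cell pairs, 76.2% without each group's highest cell, 72.4% in the extraction series, 45.7% in cells sampled once and 39% in the same-cell pairs. No paired analysis was possible because each group is 1 sample and no model was fitted, so the 9 same-cell pairs were set side by side as values.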

Other observations

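Single cells stood far above their group for a few genes, described here after their values were seen. Postn, a matricellular protein of remodelled tissue, reached 21434 CPM in 1 ASPC_Post cell, against a median of 245.6 CPM. Igfbp6 reached 13346 CPM against a median of 647.1 CPM, and Mmp3, a stromelysin, 14194 CPM against a median of 0. Cd24a reached 5395 CPM against a median of 94.9 CPM. In ASPC_Pre, Usp18 reached 1607 CPM against a median of 0, and Timp3 14488 CPM against a median of 1325 CPM.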
